A study of Rattus norvegicus with 12 samples.

Results

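A set of 8 transcription factor genes was followed through the experiment. They were Hnf4a, Foxa1, Foxa2, Foxo1, Gata4, Gata6, Insm1 and Neurog3, taken by symbol, and they make up 8 of the 34034 gene symbols in the count table. RNA was measured in INS-1E cells, a rat insulinoma line used as a model of the pancreatic β-cell, so the values come from a tumour line and not from islets. Untreated cells were cultured without cytokines. IL-1βlow cells received 10 pg/ml IL-1β for 72 h. CYT cells received 100 pg/ml IL-1β together with 5 ng/ml IFN-γ for 16 h. IL-1βlow + CYT cells received the low dose first and then, in renewed medium, the cytotoxic mixture. Each of the 4 groups had 3 libraries, which the labels call biological replicates without saying whether they were cultured on separate days, so the p-values measure the spread between these libraries. The design asks how a cytotoxic cytokine mixture alters the cells, and whether an earlier low dose of IL-1β alters that response.

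HNF4A is a nuclear receptor that controls metabolic and secretory genes in β-cells, and inherited loss of its function causes a monogenic diabetes. FOXA1 and FOXA2 are pioneer factors that open chromatin in the foregut endoderm and keep β-cell genes accessible, whereas FOXO1 is a forkhead factor that leaves the nucleus when insulin signalling activates AKT. GATA4 and GATA6 act in the pancreatic progenitor, NEUROG3 commits progenitors to the endocrine lineage, and INSM1 is a zinc finger repressor that acts after NEUROG3 and persists in mature endocrine cells.

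Promoter sequences from RefSeq (GRCr8) were found for 5 of the 8 genes. The windows are shown for a member that fell with CYT whether or not cells were preconditioned (Hnf4a), one with no detected change from untreated cells (Foxa2) and one whose fall was not seen after preconditioning (Foxo1). Each run holds the 250 bases before an annotated transcription start, 5′ to 3′ on the strand of the gene, and capitals mark matches to the motifs searched. The windows are chr3:172605970-172606219 (+) and chr3:172641586-172641835 (+) for the first and the second annotated start of Hnf4a, chr3:155927509-155927758 (-) for Foxa2 and chr2:138462724-138462973 (+) for Foxo1.
Hnf4a, first start: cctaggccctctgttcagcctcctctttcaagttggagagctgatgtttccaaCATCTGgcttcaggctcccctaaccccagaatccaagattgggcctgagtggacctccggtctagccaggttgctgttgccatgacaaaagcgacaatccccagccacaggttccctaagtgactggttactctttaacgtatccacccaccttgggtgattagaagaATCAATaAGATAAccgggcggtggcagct
Hnf4a, second start: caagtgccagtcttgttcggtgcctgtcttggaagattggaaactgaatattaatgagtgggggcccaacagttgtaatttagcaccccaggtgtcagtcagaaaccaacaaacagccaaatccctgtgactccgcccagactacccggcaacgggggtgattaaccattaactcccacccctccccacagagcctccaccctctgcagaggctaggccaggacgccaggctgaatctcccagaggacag
Foxa2: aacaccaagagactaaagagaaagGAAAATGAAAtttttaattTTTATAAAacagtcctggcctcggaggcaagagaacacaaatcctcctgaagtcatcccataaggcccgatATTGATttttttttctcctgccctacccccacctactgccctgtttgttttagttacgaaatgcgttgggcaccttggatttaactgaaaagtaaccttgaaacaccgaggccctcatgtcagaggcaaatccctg
Foxo1: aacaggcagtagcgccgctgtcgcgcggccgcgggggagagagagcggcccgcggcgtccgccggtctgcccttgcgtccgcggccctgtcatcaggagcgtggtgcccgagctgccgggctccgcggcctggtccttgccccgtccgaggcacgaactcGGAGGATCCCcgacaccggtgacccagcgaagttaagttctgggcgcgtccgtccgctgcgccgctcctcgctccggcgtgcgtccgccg

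The motifs were searched on both strands. The first Hnf4a start held AGATAA, the letters bound by GATA factors, ATCAAT, the reverse complement of the ONECUT letters ATTGAT, and CATCTG, the reverse complement of the CAGATG box bound by NEUROD and NEUROG factors. The second Hnf4a start held no match to any motif named here. The Foxa2 window held GAAAATGAAA, which fits the interferon-stimulated response element (2 runs of GAAA spaced by 2 bases), the ONECUT letters ATTGAT and a pair of overlapping TATAAA matches, one on each strand. The Foxo1 window was the richest in G and C, at 74.4% with 40 CpG dinucleotides, and held 1 match to the NF-κB consensus, GGAGGATCCC, on the opposite strand. Among 33469 windows of 250 bases, a match to the NF-κB consensus was present in 6.33%, to the interferon-stimulated response element in 3.41%, to AGATAA in 10.3%, to ATTGAT in 7.10%, to CAGATG in 13.96% and to TATAAA in 12.9%. The interferon-γ activated site TTCNNNGAA (7.67% of windows), the forkhead letters TGTTTAC (3.21%) and the HNF4 letters CAAAGTCCA (0.338%) were found in none of the printed windows. These matches describe letters and not bound sites. The count table was made on mRatBN7.2 and the windows come from GRCr8.

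Of the 8 genes, 7 had enough reads to test. With CYT 6 of them fell, and Foxa2 was the exception. Insm1 fell to 0.481 of its untreated level, and the decrease was smaller for Foxa1, Hnf4a, Gata6, Foxo1 and Gata4. After preconditioning with IL-1βlow, Foxo1, Foxa1 and Insm1 in cytokine-treated cells were higher than after CYT alone. For Foxa1 and Insm1 this was no longer detected with some single libraries left out or under some other settings, for Foxo1 under none. Foxo1 was then within the joint range of untreated and IL-1βlow cells, and Hnf4a, Gata6 and Insm1 were below untreated cells. The lower Gata6 here and the fall of Gata4 with CYT were likewise lost with some libraries left out. Neurog3 had no count in any library.

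There were 2 rules for calls. The thresholds of the study, a log2 fold change beyond 1 in size (beyond 0.6 for IL-1βlow against untreated) at an adjusted p under 0.01, define a gene that passed the thresholds. A gene is said to have risen or fallen at an adjusted p under 0.05 at any size of change. Both use the quasi-likelihood test of edgeR, with p-values adjusted over all 14324 tested genes. In CYT against untreated, 6 of 7 tested members fell, where 31.7% of all tested genes fell, and 1 of 7, Insm1, passed the thresholds downwards, where 11.6% of all genes did. The 3 CYT libraries lay below the 3 untreated libraries for 6 members, a separation that 35.3% of all genes showed in that direction. In IL-1βlow + CYT against CYT, 3 of 7 rose (4 with the replicate number as a block), against 25.3% of all genes, and 0 passed the thresholds, which 12.5% of all genes passed in either direction. In IL-1βlow + CYT against untreated, 3 of 7 fell (2 in DESeq2), against 9.59% of all genes, and 0 passed (5.99% of all genes). In IL-1βlow against untreated 0 of 7 changed (1, Insm1, with the replicate number as a block), where 1.35% of all genes did. There 0 passed (0.433%), with 3 members at an unadjusted p under 0.05 in edgeR. In the last 3 comparisons DESeq2 and edgeR's exact test also had 0 members past the thresholds, and at an adjusted p under 0.05 each called 3 in IL-1βlow + CYT against CYT and 0 in IL-1βlow against untreated. The unadjusted count was 4 for IL-1βlow + CYT against CYT and 3 for IL-1βlow + CYT against untreated. The comparisons share libraries, so they are not independent of each other. The median log2 fold change of the 7 members was -0.67 in CYT against untreated and 0.27 in IL-1βlow + CYT against CYT, beside medians of -0.04 and 0.02 over all tested genes. With upper quartile factors the median of all genes moved to -0.14 in CYT against untreated.

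**Figure D1:**
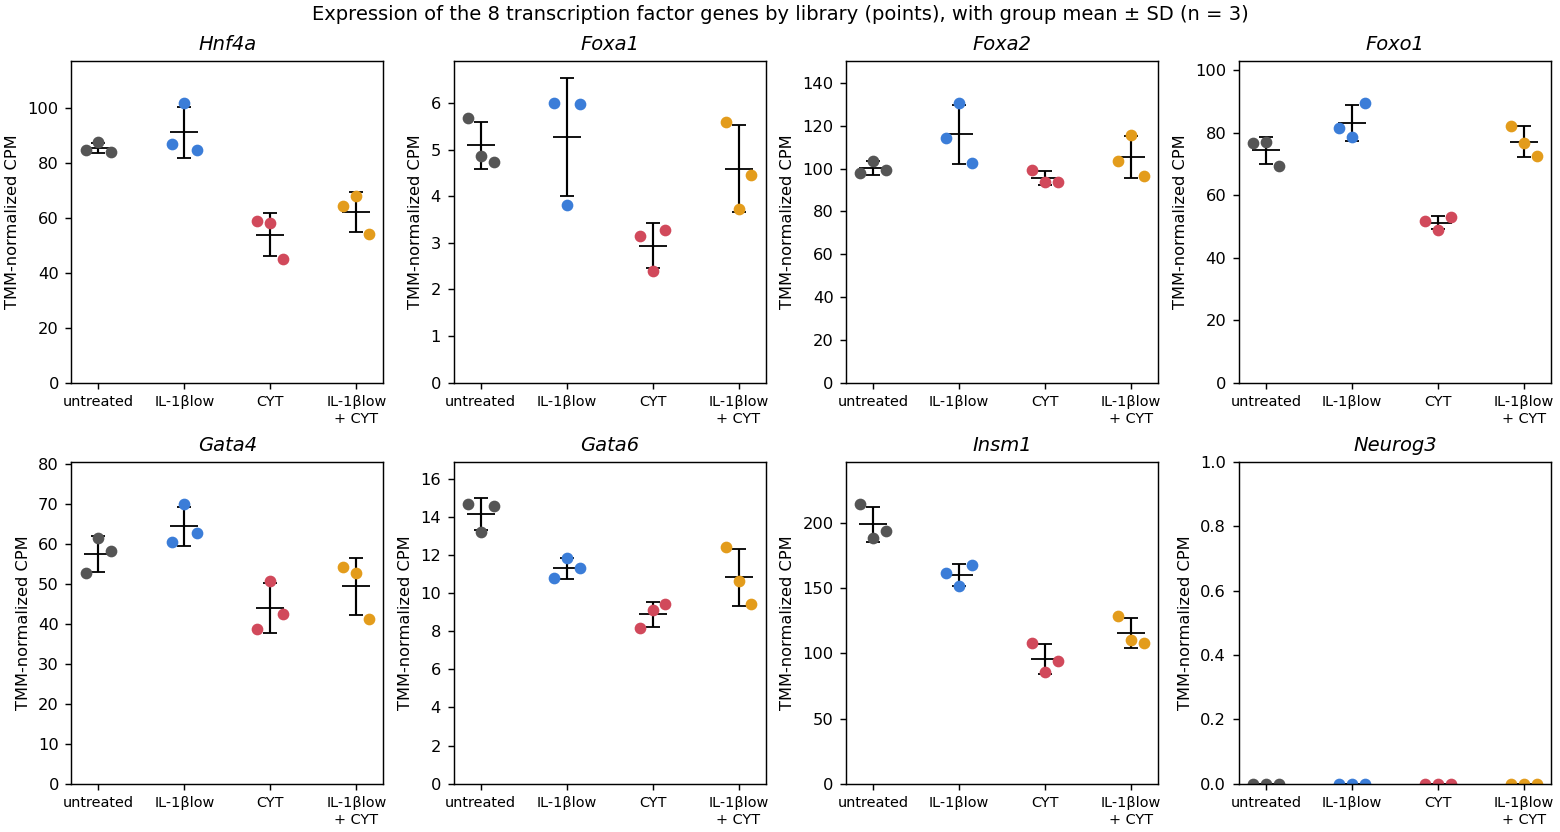
Normalized read counts (CPM, linear axis) of the 8 genes in each library of the 4 groups, with points for the 3 libraries and bars for the mean ± SD. Insm1 lies highest in untreated cells and lowest in CYT cells with no overlap between neighbouring groups, Foxa2 overlaps between neighbouring groups, and Neurog3 is at 0 throughout.

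Hnf4a was at 84.8, 87.5 and 84.1 CPM, the read count scaled to the size of its library, in the untreated libraries and at 58.8, 58.1 and 44.9 CPM in the CYT libraries. It was at 86.9, 102 and 84.8 CPM in IL-1βlow cells and at 64.5, 67.8 and 54.0 CPM in IL-1βlow + CYT cells. Every library that had received the cytotoxic mixture lay below every library that had not, and the ranges of the CYT and IL-1βlow + CYT libraries overlapped. The log2 fold change in CYT against untreated was -0.67 (SE 0.12, adjusted p = 1.9e-04). After preconditioning, the decrease against untreated was -0.46 (SE 0.12, adjusted p = 0.00995) and against IL-1βlow it was -0.55 (SE 0.12, adjusted p = 0.0044). Hnf4a in IL-1βlow + CYT was 0.21 above CYT on the log2 scale (SE 0.12, 95% interval -0.04 to 0.46, adjusted p = 0.157), and the response to CYT with and without preconditioning differed by 0.11 (95% interval -0.24 to 0.46, adjusted p = 0.618). Without IL-1βlow + CYT replicate 3, the adjusted p of Hnf4a in IL-1βlow + CYT against CYT was 0.0442, and with the replicate number as a block it was 0.0454. The low dose alone gave a log2 fold change of 0.09 (adjusted p = 0.724). RefSeq places 2 long non-coding genes over Hnf4a, with at most 18 counts in a library.

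Foxa1 was sparsely counted, with 41 to 117 counts per library. It was at 5.67, 4.85 and 4.74 CPM in untreated, 5.999, 3.80 and 5.98 CPM in IL-1βlow, 3.15, 2.39 and 3.27 CPM in CYT and 5.59, 3.73 and 4.46 CPM in IL-1βlow + CYT cells. The 3 CYT libraries were the lowest of the 12. The log2 fold change was -0.79 in CYT against untreated (SE 0.23, adjusted p = 0.00731) and 0.64 in IL-1βlow + CYT against CYT (SE 0.23, adjusted p = 0.0299). The latter was above 0.05 without CYT replicate 1 (0.0561), CYT replicate 2 (0.112) or IL-1βlow + CYT replicate 1 (0.157), and with only the compared groups in the fit (0.0536). IL-1βlow + CYT against untreated gave -0.15 (95% interval -0.62 to 0.31, adjusted p = 0.659).

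Foxa2 was at 97.8, 104 and 99.1 CPM in untreated and at 99.5, 93.8 and 94.0 CPM in CYT cells. It was at 114, 131 and 103 CPM in IL-1βlow cells and at 104, 116 and 96.4 CPM in IL-1βlow + CYT cells. Groups next to each other in level overlapped. The log2 fold change in CYT against untreated was -0.07, with a 95% interval from -0.27 to 0.14 (adjusted p = 0.56), so a decrease as large as that of Hnf4a lies outside the interval. Set against IL-1βlow cells, where Foxa2 was highest, CYT cells were lower by a log2 fold change of -0.28 (SE 0.09, adjusted p = 0.0213). In that comparison all 7 tested members fell, where 29.2% of all genes did, and 0 passed the thresholds (19.1% of all genes), with 7 members at an unadjusted p under 0.05. The Foxa2 call was lost with no filter (0.134), with only the compared groups (0.0557) and without IL-1βlow replicate 1 (0.0572) or CYT replicate 1 (0.0527), 2 (0.0597) or 3 (0.0926), and without IL-1βlow replicate 2 the value was -0.16 (0.16). The Gata6 call (-0.35, adjusted p = 0.0343) was lost in DESeq2 (0.0557), with no filter (0.264), with only the compared groups (0.0763) and without untreated replicate 1 (0.0542) or 2 (0.0514), IL-1βlow replicate 1 (0.0574), 2 (0.114) or 3 (0.0649), or CYT replicate 1 (0.161), 2 (0.0597) or 3 (0.0603). A long non-coding gene on the Foxa2 locus, LOC120101726, was at 5.75 CPM in untreated and 2.38 CPM in CYT cells. The strand setting of the counting is not given in the sources used here, so reads of overlapping genes may not be separated.

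Foxo1 fell with CYT and was not detectably lower after preconditioning. It was at 76.8, 76.9 and 69.5 CPM in untreated cells and at 51.7, 49.0 and 53.0 CPM in CYT cells. In IL-1βlow cells it was at 81.4, 78.6 and 89.5 CPM, and in IL-1βlow + CYT cells at 82.3, 76.8 and 72.5 CPM. The 3 CYT libraries lay below the other 9, and the IL-1βlow + CYT libraries overlapped those of untreated and IL-1βlow cells. Foxo1 fell by 0.54 on the log2 scale in CYT against untreated (SE 0.08, adjusted p = 7.1e-05). It was 0.59 higher in IL-1βlow + CYT than in CYT (SE 0.08, adjusted p = 5.2e-05). Between IL-1βlow + CYT and untreated the difference was 0.05, with a 95% interval from -0.12 to 0.23 (adjusted p = 0.691). The response to CYT itself differed with preconditioning by 0.43 (SE 0.12, adjusted p = 0.0111). With no filter this difference was 0.38 and no longer under 0.05 (adjusted p = 0.104).

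**Figure D2:**
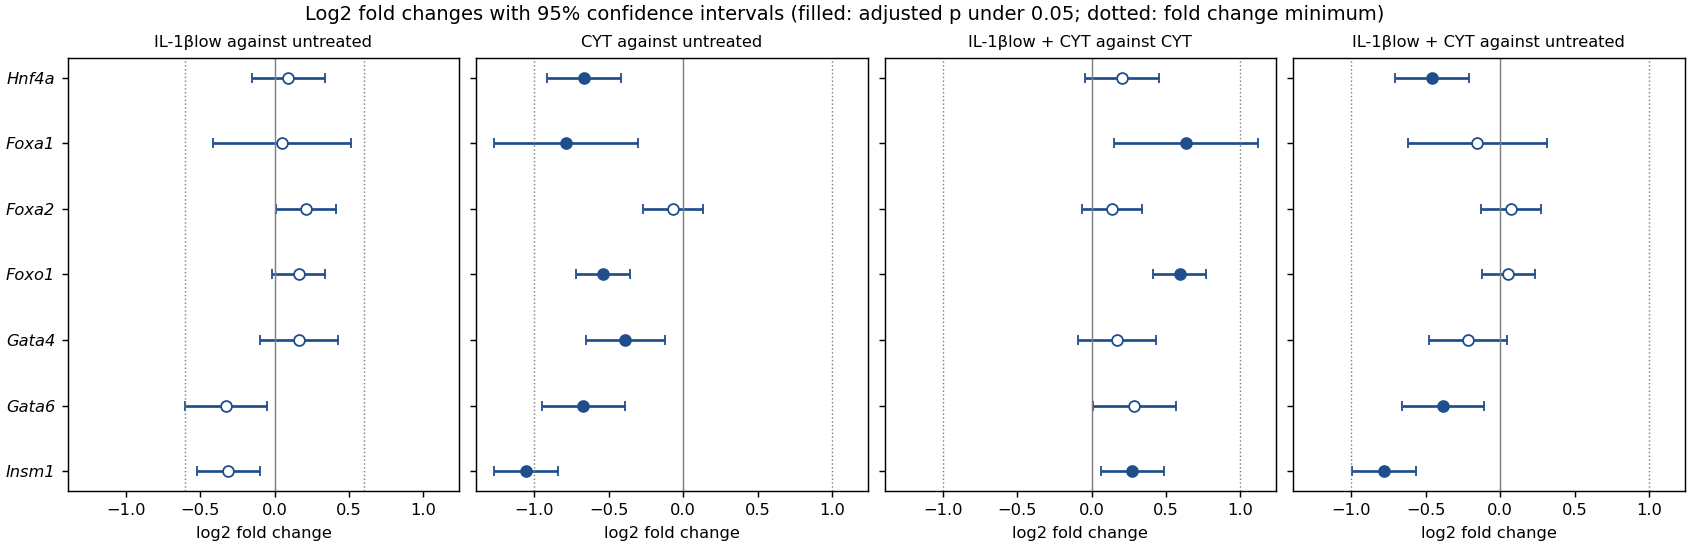
Log2 fold changes of the 7 tested genes with 95% intervals in 4 comparisons, from edgeR's quasi-likelihood fit, with filled points for an adjusted p under 0.05. In CYT against untreated 6 points are filled and lie below 0, and in IL-1βlow + CYT against CYT the filled points of Foxa1, Foxo1 and Insm1 lie above 0.

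Both GATA factor genes fell with CYT. Gata4 was at 52.8, 61.7 and 58.3 CPM in untreated, 60.7, 70.0 and 62.7 CPM in IL-1βlow, 38.7, 50.9 and 42.4 CPM in CYT and 54.2, 52.9 and 41.3 CPM in IL-1βlow + CYT cells. The untreated and CYT libraries did not overlap, and the libraries of IL-1βlow + CYT overlapped both. Gata4 fell by 0.39 in CYT against untreated (SE 0.12, adjusted p = 0.0135), and the adjusted p rose to 0.0945 without CYT replicate 1, 0.0573 without CYT replicate 3 and 0.0671 without untreated replicate 2. IL-1βlow + CYT against CYT gave 0.17 (95% interval -0.09 to 0.43, adjusted p = 0.268). IL-1βlow + CYT against IL-1βlow gave -0.38 (SE 0.12, adjusted p = 0.0565), which lay under 0.05 in DESeq2 (0.0383), in edgeR's exact test (0.0312), with upper quartile factors (0.0392), with library size only (0.0357), with no filter (0.0436), with at least 10 counts in every library (0.039), with the replicate number as a block (0.011) and without IL-1βlow + CYT replicate 1 (0.0461) or CYT replicate 2 (0.0401).

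Gata6 was at 14.7, 13.2 and 14.6 CPM in untreated and at 10.8, 11.8 and 11.3 CPM in IL-1βlow cells. It was at 8.15, 9.09 and 9.41 CPM in CYT and at 12.4, 10.6 and 9.45 CPM in IL-1βlow + CYT cells. Untreated libraries were the highest of the 12, and those of the other groups came close to each other. Gata6 fell by 0.67 in CYT against untreated (SE 0.13, adjusted p = 4.4e-04). With preconditioning, the CYT response was -0.06 against IL-1βlow (SE 0.13, adjusted p = 0.854), and the responses with and without preconditioning differed by 0.61 (SE 0.18, adjusted p = 0.0178). The adjusted p of this difference was 0.0503 without untreated replicate 1, 0.0543 without IL-1βlow replicate 1 and 0.0616 without IL-1βlow + CYT replicate 1. With no filter it was 0.115. IL-1βlow cells, the baseline of that response, gave -0.33 against untreated (SE 0.13, adjusted p = 0.291), so the smaller response begins from a lower mean. Against CYT, IL-1βlow + CYT gave 0.29 (adjusted p = 0.0825), with adjusted p of 0.0354 without IL-1βlow + CYT replicate 3 and 0.0315 with upper quartile factors. Against untreated it gave -0.39 (adjusted p = 0.0442), which was 0.101 without untreated replicate 1, 0.12 without untreated replicate 3, 0.126 without IL-1βlow + CYT replicate 2 and 0.106 without IL-1βlow + CYT replicate 3, and also above 0.05 without CYT replicate 2 (0.0535) or IL-1βlow replicate 3 (0.0521). It was also above 0.05 with RLE size factors (0.0534), in DESeq2 (0.0516), with no filter (0.258) and with only the compared groups (0.0728).

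Insm1 had the largest change with CYT of the 7 tested members. It was at 214, 189 and 193 CPM in untreated, 161, 151 and 168 CPM in IL-1βlow, 129, 110.4 and 107.9 CPM in IL-1βlow + CYT and 107.5, 85.3 and 94.2 CPM in CYT cells. The groups stood in that order of level, and no neighbouring pair overlapped, although the lowest IL-1βlow + CYT library and the highest CYT library were close. Insm1 fell by 1.06 in CYT against untreated (SE 0.10, adjusted p = 5.3e-07) and by 0.78 in IL-1βlow + CYT against untreated (SE 0.10, adjusted p = 3.9e-05). The first value sits at the fold change limit and was -0.99 without untreated replicate 1 and -0.98 without CYT replicate 2, where Insm1 no longer passed. IL-1βlow gave -0.31 against untreated (SE 0.10, adjusted p = 0.168). With the replicate number as a block that adjusted p was 0.0194, although the numbers did not pair untreated libraries with the others. IL-1βlow + CYT was 0.27 above CYT (SE 0.10, adjusted p = 0.0323), with adjusted p above 0.05 when any of 7 libraries was left out. These were IL-1βlow + CYT replicate 1 (0.219), CYT replicate 2 (0.141), CYT replicate 3 (0.11), IL-1βlow replicate 1 (0.0669), IL-1βlow replicate 2 (0.0567), untreated replicate 1 (0.0567) and untreated replicate 2 (0.0628), and without IL-1βlow + CYT replicate 1 the value itself was 0.16. The call was also lost with only the compared groups in the fit (0.0868) and with no filter (0.109). The response to CYT within preconditioned cells was -0.47 (SE 0.10, adjusted p = 0.00458) and differed from that in cells without preconditioning by 0.59 (SE 0.14, adjusted p = 0.0049).

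**Figure D3:**
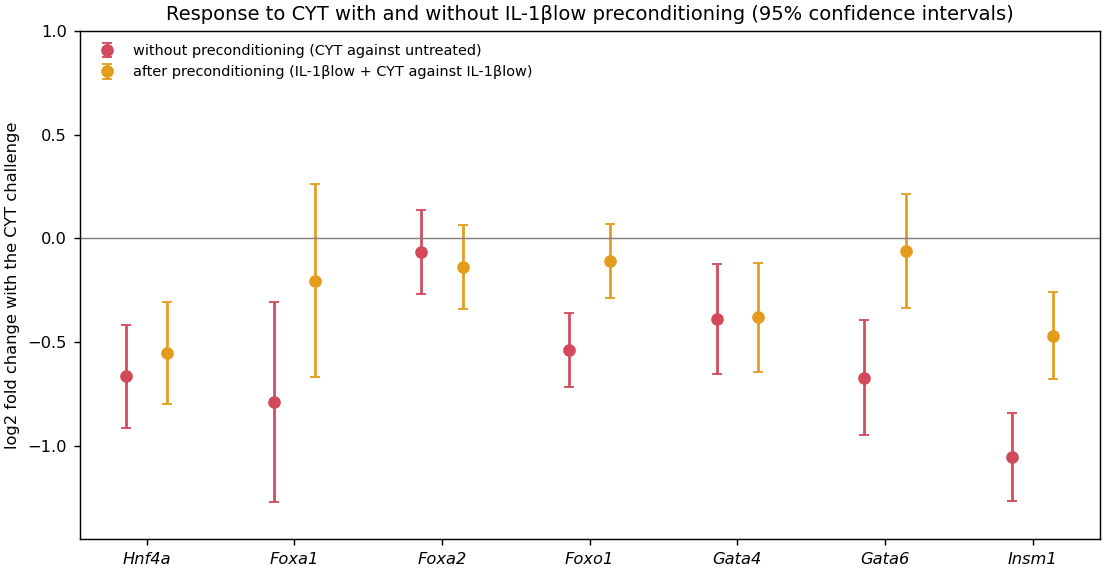
Response to CYT (log2 fold change with 95% intervals) of the 7 tested genes, without preconditioning (CYT against untreated) and with it (IL-1βlow + CYT against IL-1βlow). Gata6 moves from -0.67 to -0.06, Foxo1 from -0.54 to -0.11 and Insm1 from -1.06 to -0.47, while Hnf4a stays below 0 in both, at -0.67 and -0.55.

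Of the 7 tested members, Foxo1, Gata6 and Insm1 had a response to CYT that differed with preconditioning at an adjusted p under 0.05, each less negative after the low dose. Of all tested genes 18.1% had a difference in this direction. None of the 7 passed the thresholds for it, which 10.7% of all genes passed, and the same 3 members had an unadjusted p under 0.05 in edgeR. DESeq2 called 0 members by the thresholds. In IL-1βlow + CYT against IL-1βlow, 2 of 7 fell, Hnf4a and Insm1, where 4.99% of all genes fell, and with Gata4 the count was 3 in DESeq2, in edgeR's exact test and with a replicate block. None passed the thresholds there (3.88% of all genes), with 3 at an unadjusted p under 0.05 and none passing in DESeq2 or edgeR's exact test.

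Neurog3 was listed at 0 counts in all 12 libraries, which together held 211580473 counts. A count of 0 in a library allows up to 3 counts, or 0.149 to 0.185 CPM depending on the library, for counting error only. Neurog1 and Neurog2, its relatives, were also at 0 in every library. Ldha and Hk1, glycolysis genes that most cell types express but β-cells normally keep low, were at 0 in every library as well. Whether such zeros come from the cells or from the counting was not tested. A row at 0 in this table describes the count and not the presence of the transcript.

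Over the 12 libraries, likeness to the profile of Insm1 was measured among 10835 genes as the root mean square difference of log2 CPM relative to the untreated mean. The 3 closest genes were Trak2, an adaptor of mitochondrial transport, at 0.124, Pbx3, a homeodomain cofactor, at 0.128, and Tle1, a co-repressor, at 0.129, where the median gene was at 0.718. Trak2 stood at -0.31 in IL-1βlow, -1.05 in CYT and -0.78 in IL-1βlow + CYT relative to untreated, close to -0.31, -1.06 and -0.78 for Insm1.

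Relatives of the members did not move as a block. Of 19 relatives 11 were tested, of which 1 passed the thresholds upwards and 2 downwards in CYT against untreated, where 21.6% of all genes passed in either direction, and their median log2 fold change was -0.10. Zfpm1, a cofactor of GATA factors, rose from 20.4 CPM in untreated to 149 CPM in CYT cells (log2 fold change 2.86, adjusted p = 2.2e-09) and was at 29.6 CPM in IL-1βlow + CYT cells (-2.33 against CYT, adjusted p = 6.0e-08). The related Zfpm2 fell by 1.24 (adjusted p = 1.1e-05), and so did Onecut2, which works with HNF factors in the developing pancreas (adjusted p = 1.9e-05). Without CYT replicate 1, 5 relatives passed in place of 3. Gata3, a further GATA factor, rose by 1.44 in IL-1βlow + CYT against CYT (adjusted p = 5.4e-04). Foxa3 and Foxo3, relatives singled out after their values were seen, rose with CYT. Foxa3 rose from 29.8 to 53.1 CPM with CYT (0.83, SE 0.11, adjusted p = 1.6e-05) and Foxo3 from 59.7 to 112 CPM (0.91, SE 0.09, adjusted p = 4.8e-07), and in IL-1βlow + CYT cells they were at 27.0 and 60.2 CPM.

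Genes that act with or after NEUROG3 in the endocrine lineage formed another list. Of 20, 17 were tested, 7 passed the thresholds, each downwards, in CYT against untreated, where 11.6% of all genes did, and the median of the 17 was -0.82. Isl1 fell by 2.32, Nkx2-2 by 2.01 and Nkx6-1 by 1.75 (adjusted p = 2.4e-08, 1.9e-09 and 3.2e-06), all homeodomain factors of β-cell identity. Of the 17, 6 passed upwards in IL-1βlow + CYT against CYT (6.54% of all genes), with a median of 0.72, led by Isl1 (1.90), Mnx1 (1.46) and Rfx6 (1.42). Notch signalling restrains Neurog3 in progenitors. Of 13 tested genes of that list, 4 passed upwards in CYT against untreated (10% of all genes), with a median of 0.08. The ligand genes Jag1 and Dll1 rose from 0.939 to 14.05 CPM and from 2.54 to 24.8 CPM, and the receptor gene Notch2 from 13.3 to 126 CPM (log2 fold changes 3.89, 3.28 and 3.25). Hes1, a Notch target that represses Neurog3, was looked up after these values were seen and had a log2 fold change of -0.06 (adjusted p = 0.804). After preconditioning, Notch2 was at 25.2 CPM and Jag1 at 1.88 CPM, and both passed downwards against CYT, as 5.92% of all genes did. Dll1 did not pass against CYT (-0.69, adjusted p = 0.00279) and, at 15.4 CPM, was above untreated (2.60, adjusted p = 1.4e-07). Of 13 tested cofactors of INSM1, 0 passed in CYT against untreated in edgeR, DESeq2 or edgeR's exact test (21.6% of all genes passed in edgeR), with a median of 0.03, whereas 8 of 13 rose or fell at an adjusted p under 0.05, where 62.3% of all genes did, and 8 had an unadjusted p under 0.05. Of the cofactors 1 passed with upper quartile factors, without CYT replicate 2 or without untreated replicate 3.

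Targets of the forkhead factors moved in both directions. Of 13 tested FOXA targets 5 passed downwards (11.6% of all genes) and 1 upwards (10% of all genes) in CYT against untreated, with a median of -0.34. Gcg fell by 2.83, Hadh, a mitochondrial β-oxidation enzyme, by 2.20 and Rab27a, a granule-docking GTPase, by 2.01, and Creb3l1 rose by 1.66. Of 22 tested FOXO targets 8 passed upwards and 3 downwards, beside the same shares of all genes, with a median of 0.34. The stress genes Gadd45b (2.96) and Gadd45a (2.59) and the antioxidant gene Sod2 (2.67) rose, whereas Txnip (-2.43) and Irs2 (-1.73), the insulin receptor substrate, fell. In IL-1βlow + CYT against CYT, 4 FOXA targets passed upwards and 1, Creb3l1 (-1.90), downwards, with a median of 0.37, beside 6.54% and 5.92% of all genes. Those that rose were Gcg (1.44), Pdx1 (1.35), Nr2f2 (1.32) and Hadh (1.19). Of the FOXO targets 2 passed upwards there, Txnip (2.80) and Sesn3 (1.19), and 4 downwards, led by Gadd45b (-2.79), Cdkn1a (-1.26) and Gadd45a (-1.04), with a median of -0.09. Of 19 tested regulators of FOXO proteins, 1 passed upwards and 2 downwards in CYT against untreated, with a median of -0.06, a share no higher than the 21.6% of all genes that passed. The kinase gene Sgk1 rose from 21.8 to 214 CPM and Cdk2 and Skp2 fell by 1.65 and 1.45. Against CYT, IL-1βlow + CYT gave -2.02, 1.42 and 1.39 for these 3 genes, and Sgk1, at 52.8 CPM, was still above untreated (1.28, adjusted p = 1.7e-06). Against untreated, IL-1βlow alone moved 2 of 112 tested genes of these 8 lists past its thresholds (0.433% of all genes passed), Rab27a downwards and Gadd45a upwards. FOXO1 activity is set largely by phosphorylation and localisation, which these RNA counts do not measure.

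**Figure D4:**
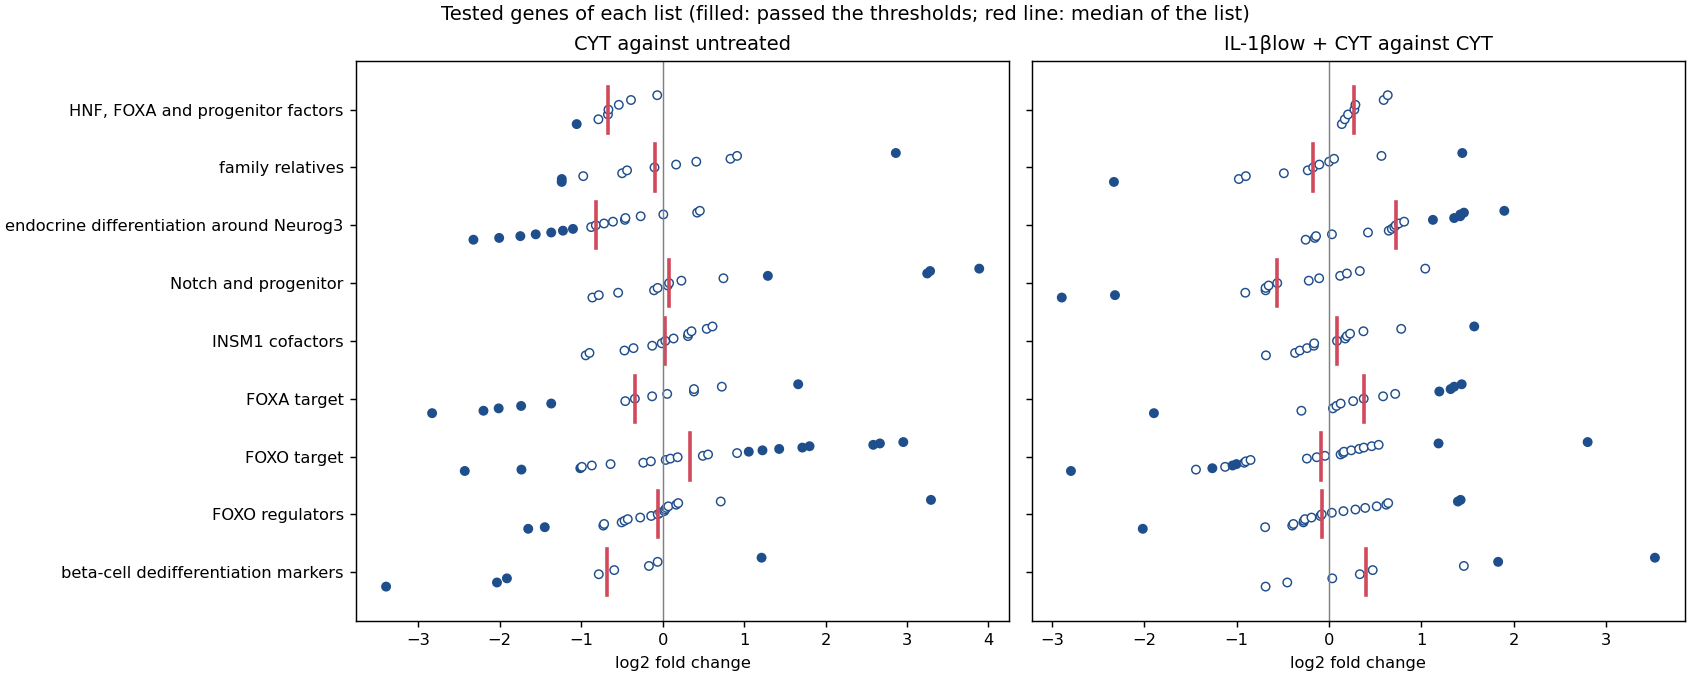
Log2 fold changes of the members and of the tested genes in each of 8 lists, in CYT against untreated and in IL-1βlow + CYT against CYT, with filled points for genes that passed the thresholds. The endocrine list lies mostly below 0 in the first panel, with a median of -0.82, and mostly above 0 in the second, with a median of 0.72.

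Markers of dedifferentiated β-cells did not follow 1 direction. Of 14, 8 were tested, and in CYT against untreated 1 passed upwards (10% of all genes) and 3 downwards (11.6% of all genes), with a median of -0.69. Slc16a1, a lactate transporter that β-cells normally keep low, rose from 16.1 to 37.3 CPM (1.22, adjusted p = 1.6e-06), while Fev fell from 13.3 to 3.25 CPM (-2.03, adjusted p = 8.1e-07) and Pou5f1 from 1.86 to 0.482 CPM (-1.91, adjusted p = 0.0014). Pou5f1 was sparsely counted, with 3 to 14 counts in a CYT library. Gast passed downwards from 1.02 CPM to 0.0884 CPM, a level at or under 3 counts in each CYT library. Aldh1a3, the dedifferentiation marker that the paper measured in islets, had too few reads to test. It was at 0.0197 CPM in untreated, 0.415 CPM in CYT and 0.269 CPM in IL-1βlow + CYT cells, with at most 9 counts in a CYT library. In IL-1βlow + CYT against CYT, 2 of the 8 passed, both upwards (6.54% of all genes), with Fev at 11.5 CPM and Gast at 1.13 CPM in IL-1βlow + CYT cells.

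Total counts per library ran from 15812640 to 20246806. A single row, the ribosomal RNA precursor Rn45s, held 6.89% to 11.1% of them, and the fits were also run without that row. The summed level of β-cell markers was 33866 to 40227 CPM in untreated, 29602 to 34481 CPM in IL-1βlow, 11077 to 11318 CPM in CYT and 16540 to 21060 CPM in IL-1βlow + CYT cells. Ins1 and Ins2 made up most of this sum, at 23994 and 8097 CPM in untreated and 7197 and 1295 CPM in CYT cells. Mafa, at 890.3, 302 and 531 CPM in untreated, CYT and IL-1βlow + CYT cells, and Nkx6-1, at 34.0, 10.2 and 15.8 CPM, were likewise below untreated in both cytokine-treated groups. Other β-cell markers had other profiles, with Slc2a2 at 434 CPM in untreated, 397 CPM in CYT and 596 CPM in IL-1βlow + CYT cells, Slc30a8 at 899, 469 and 990.1 CPM, and Pdx1 at 266, 103 and 263 CPM. The part of these markers in the members' values was not tested. Of the 10 β-cell markers 8 were tested, and Ucn3 and G6pc2, defining markers of the mature β-cell, were near 0, with at most 16 and 4 counts in a library. The summed duct markers ranged from 174 to 204 CPM in untreated and from 594 to 795 CPM in CYT cells, nearly all of it Krt7, whereas Sox9 was at 2.30 CPM in untreated and 1.34 CPM in CYT cells, with Krt19 at no more than 3 counts in a library and Cftr at 0. The 6 immune markers summed to 1.03 to 2.32 CPM, with Ptprc at 0 in every library and Csf1r at up to 32 and Cd68 at up to 22 counts in a library. In bulk RNA, fewer cells of a type and less RNA per cell cannot be told apart.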

How the data were processed

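The authors made TruSeq libraries from what the labels call polyA RNA, and reads were assigned to genes of mRatBN7.2 by featureCounts. The table the authors deposited holds raw counts, 1 row for each symbol. The strand setting is not given in the sources used here. The 8 members and all gene lists were chosen with earlier results of these data known.

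Genes above 1 CPM in at least 2 libraries were kept (14324 of 34034, with 99.9% of counts). Counts were normalized by TMM and fitted with edgeR 4.0.16's quasi-likelihood test in R 4.3.3 over all 4 groups, with limma 3.58.1, and p-values were adjusted over all tested genes by the Benjamini-Hochberg method. CPM uses the TMM library sizes. Intervals are 95%. Genes named from each list were up to 3 that passed the thresholds, by largest absolute log2 fold change in each direction, for CYT against untreated and IL-1βlow + CYT against CYT, plus the 3 genes most like any member that passed. The quasi-likelihood fit was tested on simulated counts, for CYT against untreated only. DESeq2 1.42.0, edgeR's exact test, other size factors, other filters, only the compared groups, a replicate block and each library left out were tried as alternatives. Promoter windows come from RefSeq (GRCr8), and Foxa1, Gata4 and Insm1 were not matched there. Some listed genes, and the results that need them, are not reported here. Deviations from group means of libraries with the same replicate number correlated at 0.105 to 0.475 among the 3 cytokine groups and at -0.176 to 0.168 with untreated libraries, beside a mean of -0.0852 for libraries with other numbers. The labels name no shared batch or day, so the numbers were taken to pair the cytokine groups from these correlations alone.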

Additional observations from a re-analysis of the deposited data

Results flagged for a closer look

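The response to CYT differed between cells with and without preconditioning for 3 of the 7 tested members, by a test of the difference itself in edgeR's quasi-likelihood fit. The difference was 0.43 on the log2 scale for Foxo1 (adjusted p = 0.0111), 0.61 for Gata6 (adjusted p = 0.0178) and 0.59 for Insm1 (adjusted p = 0.0049). For Gata6 the preconditioned baseline was itself at 11.3 CPM against 14.2 CPM in untreated cells, and its response without preconditioning was -0.67. For Insm1 the preconditioned baseline was likewise lower, at 160 CPM against 199 CPM in untreated cells. Over the alternatives the adjusted p ran from 0.000282 to 0.0187 for Insm1, from 0.00487 to 0.104 for Foxo1 and from 0.00867 to 0.115 for Gata6, where the highest values of Foxo1 and Gata6 came with no filter. Gata6 was also above 0.05 without untreated replicate 1 (0.0503), IL-1βlow replicate 1 (0.0543) or IL-1βlow + CYT replicate 1 (0.0616).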

How the results depend on the processing

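Of 1064 values of the members' log2 fold changes under other settings, 63 changed side of an adjusted p of 0.05, with 49 calls lost and 14 gained. By the thresholds, Insm1 was the 1 member that passed in CYT against untreated, and 0 passed with no filter (log2 fold change -0.98). Leaving out 1 library gave 0 to 1 passing members there and 0 to 1 in CYT against IL-1βlow. At an adjusted p under 0.05 and any fold change, the counts were 6 in CYT against untreated, 3 in IL-1βlow + CYT against CYT, 3 in IL-1βlow + CYT against untreated, 2 in IL-1βlow + CYT against IL-1βlow, 7 in CYT against IL-1βlow and 3 for the difference in response. With no filter the adjusted p of the difference in response was 0.104 for Foxo1 and 0.115 for Gata6, and that of Insm1 in IL-1βlow + CYT against CYT was 0.109.

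Values that reversed lay near 0. With 1 library left out, Foxa1 in IL-1βlow against untreated ran from -0.060 to 0.23, Foxo1 in IL-1βlow + CYT against untreated from -0.0070 to 0.10, Foxa2 in the same comparison from -0.0026 to 0.13, Gata6 in IL-1βlow + CYT against IL-1βlow from -0.18 to 0.027, and the difference in response from -0.10 to 0.12 for Gata4 and from -0.026 to 0.20 for Hnf4a. Foxa2 in CYT against untreated was 0.0043 with no filter. The difference for Gata4 was -0.026 with RLE size factors, -0.026 in DESeq2, -0.041 with no filter and -0.011 with at least 10 counts in every library. The cause was not tested.

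Genes passing in IL-1βlow against untreated numbered 62 over the whole table, 138 in DESeq2, 137 in edgeR's exact test, 221 with no filter, and 16 to 87 with 1 library left out. At an adjusted p under 0.05 and any fold change, the whole-table counts were 193, 8926 in CYT against untreated, 7267 in IL-1βlow + CYT against CYT, 3124 in IL-1βlow + CYT against untreated, 1855 in IL-1βlow + CYT against IL-1βlow, 8363 in CYT against IL-1βlow and 5337 for the difference in response.

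Replicate numbers paired the libraries of the 3 cytokine groups but not those of untreated cells: 9 of 9 same-number pairs among IL-1βlow, CYT and IL-1βlow + CYT correlated over 0.1, and 3 of 9 with an untreated library. With the number as a replicate block, 1 member passed in CYT against untreated and 0 in the other comparisons, 141 genes passed in IL-1βlow against untreated, and the adjusted p was 0.0194 for Insm1 in IL-1βlow against untreated, 0.0454 for Hnf4a in IL-1βlow + CYT against CYT and 0.011 for Gata4 in IL-1βlow + CYT against IL-1βlow. Foxa1, at 41 to 117 counts per library, had the lowest counts of the 7 tested members. The block changed no other member's side of an adjusted p of 0.05.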
